A study of Mus musculus with 4 samples.

Results

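The Tafa genes (Tafa1 to Tafa5, formerly Fam19a1 to Fam19a5) encode a family of small secreted proteins. The 5 genes were chosen by name, because Tafa1 had stood out in these samples, and each was read by 1 probe set with exactly 1 gene symbol. They are 5 of 19938 genes and 5 of 21789 such probe sets. The values are log2 ratios of each test array to the control array of the same repeat, so 0 means equality with control and -1 means 2-fold less.

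The cells were mouse cortical neuron cultures from newborn pups (postnatal day 0) of mixed SV129 and C57BL/6 background, which per the labels were Syt1-deficient or wild type, with no statement of which array came from which. The knockdown cultures (2 samples) received lentivirus with shRNAs against calmodulin. The rescue cultures (2 samples) received those shRNAs plus wild-type calmodulin in a form they do not target, and the control cultures (1 array per repeat) received control lentivirus. Infection was at 5 days in vitro and RNA was taken at 14 to 15 days. Samples of the same repeat carry the same replicate date, and both groups of a repeat share its control array.

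Tafa proteins resemble chemokines distantly and are made mostly in the nervous system. In neurons, Tafa1 to Tafa4 are known to bind neurexins, the presynaptic adhesion proteins, on their way through the secretory pathway, and single members have also been reported as ligands of cell surface receptors. Calmodulin, the calcium sensor that the shRNAs target, couples calcium entry to kinases, phosphatases and transcription.

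The deposited ratios hold no intensities. How strongly each gene was expressed, and whether a dim probe set was above background, could not be read from them. Of the targeted genes, Calm2 stood at -1.08 and -1.72 in the knockdown and at -0.84 and -1.28 in the rescue, and Calm3 at -1.32 and -2.40 in the knockdown and at -2.41 and -3.55 in the rescue. No source used here says whether these probe sets also read RNA of the rescue construct. The standard deviation of the log2 ratios over genes was 0.349 in knockdown repeat 2, and 0.232 to 0.243 in the other columns.

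The windows of 250 bases before the annotated start of Tafa1, Tafa2 and Tafa4 are shown because Tafa1 and Tafa2 had the lowest knockdown means of the 5 members, while Tafa4 lies next to Tafa1. They are from RefSeq (GRCm38.p6), whose table held 6 windows for the 5 genes, and capitals mark the letters TGANTCA, the AP-1 motif. They lie at chr6:96112904-96113153 (Tafa1, plus strand), chr10:123263826-123264075 (Tafa2, plus strand) and chr6:97060412-97060661 (Tafa4, minus strand).
Tafa1: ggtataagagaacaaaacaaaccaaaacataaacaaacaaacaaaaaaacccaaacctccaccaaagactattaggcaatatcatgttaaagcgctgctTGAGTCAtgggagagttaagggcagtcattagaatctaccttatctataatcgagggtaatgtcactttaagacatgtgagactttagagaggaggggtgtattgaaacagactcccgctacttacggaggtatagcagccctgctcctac
Tafa2: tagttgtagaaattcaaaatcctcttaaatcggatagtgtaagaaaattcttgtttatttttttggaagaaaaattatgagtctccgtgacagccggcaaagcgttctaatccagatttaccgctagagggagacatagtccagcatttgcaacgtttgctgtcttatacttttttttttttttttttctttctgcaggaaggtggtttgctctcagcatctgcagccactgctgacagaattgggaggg
Tafa4: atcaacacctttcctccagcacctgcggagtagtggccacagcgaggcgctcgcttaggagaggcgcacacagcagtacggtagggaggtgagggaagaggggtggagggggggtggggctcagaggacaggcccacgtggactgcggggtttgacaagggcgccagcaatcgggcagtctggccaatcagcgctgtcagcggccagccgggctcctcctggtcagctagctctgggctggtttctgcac

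The window of Tafa1 held 1 AP-1 match, which begins 151 bases before the start. Of 32851 windows of the same length, 6.75% held that motif on either strand, and among the other members the second window of Tafa5 did so. The full cAMP response element TGACGTCA, to which CREB binds, was in none of the 6 windows and in 1.55% of all windows. Its shorter form TGACG, which is part of the full one, was only in the first window of Tafa5 and in 17.8% of all. A MEF2-type motif (CTA and TAG with any 4 letters between them) was in none of the 6 and in 3.20% of all, and the NFAT core GGAAA was in the window of Tafa4 and in 55.6% of all. The E-box CANNTG was in the windows of Tafa1 to Tafa4 and in 66.2% of all.

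The windows also differed in base composition. Tafa1 and Tafa2 had 40.8% and 38.8% G and C in their windows, with 4 and 6 CpG pairs, whereas the median of all windows was 52.4% with 6 pairs. Tafa3 was at 52.4% with 6 pairs and Tafa4 at 65.2% with 13. The 2 windows of Tafa5 were at 83.6% and 81.6%, with 48 and 38 pairs.

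Tafa1, reported to be a ligand of the receptor Gpr1, had ratios of 0.388 and 0.278 in the 2 knockdown samples and of 1.60 and 1.49 in the 2 rescue samples. On the log2 scale the knockdown samples stood at -1.37 and -1.85 and the rescue samples at 0.68 and 0.57. Both knockdown samples lay far below control and both rescue samples lay above it, an order of signs met by 4.45% of all genes. The mean was -1.61 ± 0.34 in the knockdown, or 3.05-fold below control, and 0.62 ± 0.07 in the rescue, or 1.54-fold above it (SD, n = 2 each). Because the family was chosen for the values of Tafa1, they are a description and carry no test.

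**Figure D1:**
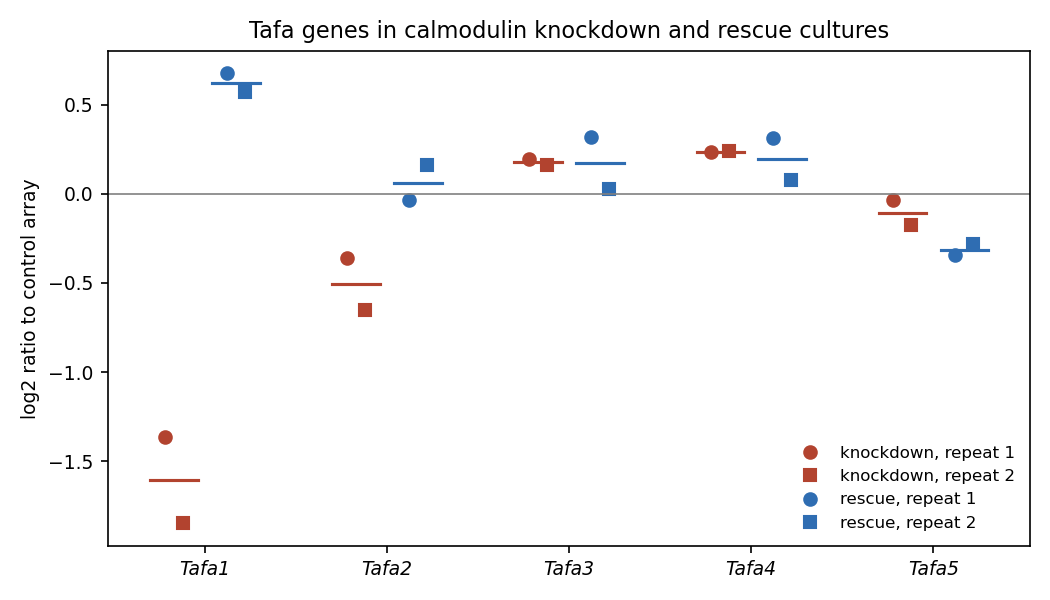
The log2 ratio to the control array of the same repeat (vertical axis) is plotted for each Tafa gene in knockdown (red) and rescue (blue) samples, with circles for repeat 1, squares for repeat 2 and bars for the group mean. Tafa1 lies at -1.37 and -1.85 in the knockdown and at 0.68 and 0.57 in the rescue, while Tafa3, Tafa4 and Tafa5 stay between -0.34 and 0.32.

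Set directly against the rescue of its own repeat, which cancels the control array, knockdown Tafa1 was at -2.04 in repeat 1 and -2.42 in repeat 2. These are 4.12-fold and 5.35-fold lower levels, with a mean log2 difference of -2.23 ± 0.27 (SD, n = 2). Counted from the lowest of 19938 genes, that difference ranked 17 in repeat 1 and 1 in repeat 2. Against control, Tafa1 ranked 11 and 6 from the lowest in the knockdown, and 117 and 208 from the highest in the rescue. No other gene was as low as Tafa1 in both knockdown repeats, and none was as low in the difference from rescue in both. In the rescue 22 genes, Tafa1 included, were at least as high in both repeats.

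**Figure D2:**
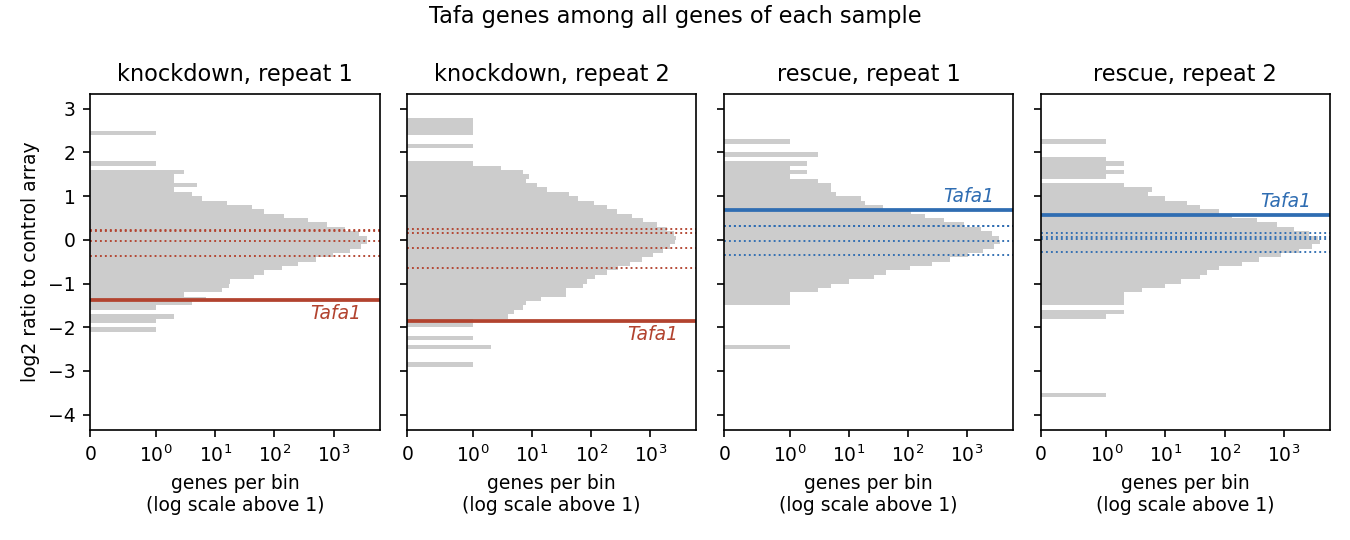
Grey bars count all 19938 genes by log2 ratio to control (vertical axis, bins of 0.1; the horizontal axis is logarithmic above 1), with 1 panel per sample and the thick line at Tafa1 and dotted lines at the other Tafa genes. Tafa1 lies at the lower edge in both knockdown samples (ranks 11 and 6 from the lowest) and in the upper tail in both rescue samples, and the other members lie nearer the centre.

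Tafa2, the member most similar in direction, was at -0.36 and -0.65 in the knockdown and at -0.03 and 0.16 in the rescue. Each knockdown sample lay below the rescue sample of its repeat (24.3% of all genes did so in both repeats). Both knockdown samples also lay below control, at a smaller distance than Tafa1. The mean of -0.51 in the knockdown (limma SE 0.13, n = 2) had a 95% interval, unadjusted, of -0.80 to -0.21, and did not pass the threshold over all genes (limma adjusted p = 0.131). In a fit with repeat as a block it passed narrowly (limma adjusted p = 0.0478). That block takes out whatever both samples of a repeat share, the spread of the control array included, so its calls against control leave that spread out. Tafa2 also passed without knockdown replicate 1, where the value was -0.65 (limma adjusted p = 0.0445) and 6.38% of all genes passed, and stood at -0.36 without knockdown replicate 2 (limma adjusted p = 0.699). In the rescue its mean was 0.06 (limma SE 0.13, adjusted p = 0.939). Knockdown minus rescue was -0.33 and -0.81 within the repeats (mean -0.57, limma SE 0.18, adjusted p = 0.490).

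Tafa3 and Tafa4 stood slightly above control in every sample. Tafa3 was at 0.20 and 0.16 in the knockdown and at 0.32 and 0.03 in the rescue, and Tafa4, reported to bind Fpr1 and Lrp1, at 0.24 and 0.24 in the knockdown and at 0.32 and 0.08 in the rescue. For both genes the knockdown samples lay between the 2 rescue samples. Knockdown means were 0.18 for Tafa3 (limma SE 0.13, adjusted p = 0.517) and 0.24 for Tafa4 (limma SE 0.12, adjusted p = 0.389), and neither passed. Rescue means were 0.17 (limma adjusted p = 0.800) and 0.20 (limma adjusted p = 0.772).

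The knockdown minus rescue difference of Tafa3 was 0.01 (unadjusted 95% interval -0.40 to 0.41), with its sign turned to -0.022 by quantile normalization and to -0.0062 by median centring. That of Tafa4 was 0.04 (-0.36 to 0.44). Both intervals overlap that of Tafa2 (-0.99 to -0.15), which does not compare the genes. Differences between members were not tested.

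Tafa5, which is reported to bind S1pr2 and Lrrc4b and is less like the other members in sequence, was at -0.04 and -0.18 in the knockdown and at -0.34 and -0.28 in the rescue. All 4 values lay below control. Here each rescue sample lay below the knockdown sample of its repeat (30.1% of all genes did so in both repeats). The rescue mean was -0.31 (limma SE 0.12, unadjusted 95% interval -0.58 to -0.04), which did not pass over all genes (limma adjusted p = 0.618; 0.275 when blocked by repeat). The knockdown mean was -0.11 (limma SE 0.12, adjusted p = 0.691). Knockdown minus rescue was 0.31 and 0.11 within the repeats (mean 0.21, limma SE 0.17, adjusted p = 1.00).

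Of Tafa2 to Tafa5, 0 of 4 passed in limma in each of the 3 comparisons. Over all genes 0.306% passed for knockdown against control, 0% for rescue against control and 0.0702% for knockdown against rescue. At an unadjusted p under 0.05 there was 1 of 4 in each comparison, Tafa2 in both that involve the knockdown (16.0% of all genes against control, 6.82% against rescue) and Tafa5 in rescue against control (7.44% of all genes). Blocked by repeat, Tafa2 alone passed for knockdown against control, where 5.39% of all genes did, and 0 of 4 in the other comparisons. The range over the family, from its lowest to its highest member, was 1.60 and 2.09 in the knockdown samples and 1.02 and 0.85 in the rescue samples, with Tafa1 at the low end in the knockdown and at the high end in the rescue.

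Tafa1 and Tafa4 lie next to each other on chromosome 6 in the RefSeq gene order, with 0 measured protein-coding genes between them, and their values differed throughout. The gene on the other side of Tafa1, Suclg2, a subunit of a mitochondrial succinyl-CoA ligase, was at 0.17 and 0.29 in the knockdown and at -0.10 and -0.12 in the rescue. Kbtbd8, beyond it, was at -0.16 and -0.40 in the knockdown and at 0.25 and 0.29 in the rescue. Eogt, beyond Tafa4, was at -0.23 and 0.70 in the knockdown and at -0.27 and 0.26 in the rescue. None of these 3 passed in any comparison (limma adjusted p from 0.313 to 1.00).

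Around Tafa2, on chromosome 10, both adjacent genes lay below control in both knockdown samples. Slc16a7, a monocarboxylate transporter, was at -0.53 and -0.51 in the knockdown and at -0.06 and 0.35 in the rescue (limma adjusted p = 0.134 for knockdown against control). Usp15, a deubiquitinase, was at -0.19 and -0.59 in the knockdown and at 0.12 and 0.15 in the rescue (limma adjusted p = 0.217). Neither passed, and the genes one place further, Mon2 and Lrig3, had knockdown means of -0.07 and 0.18. Of all genes, 31.1% lay below control in both knockdown samples.

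**Figure D3:**
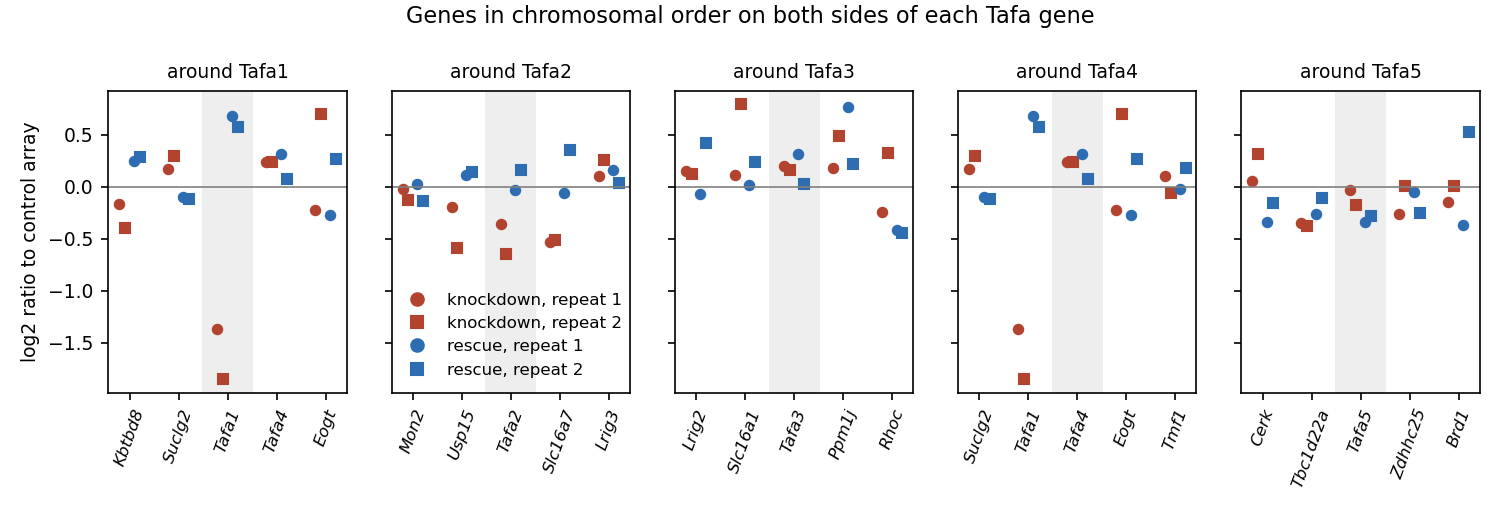
The log2 ratio to control (vertical axis) is plotted for each Tafa gene (shaded) and the 2 nearest measured protein-coding genes on each side in RefSeq order, with knockdown in red, rescue in blue, circles for repeat 1 and squares for repeat 2. Tafa1 stands apart from Suclg2 (0.17 and 0.29 in the knockdown) and Tafa4 (0.24 and 0.24), while Slc16a7 (-0.53 and -0.51) lies close to Tafa2.

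The genes most like Tafa1 were those with the smallest Euclidean distance to it over the 4 columns of log2 ratios. They were Epha3, an ephrin receptor (distance 0.62), Cck, the neuropeptide cholecystokinin (0.72), Nwd2 (0.82), Gpr26, an orphan receptor (0.88), and Hpca, the calcium sensor hippocalcin (0.93). Epha3 was at -1.01 and -1.59 in the knockdown and at 0.49 and 0.17 in the rescue, and Cck at -0.99 and -1.51 in the knockdown and at 0.29 and 0.24 in the rescue. Mean rescue values of the 5 genes ran from 0.07 (Nwd2) to 0.33 (Epha3), below the 0.62 of Tafa1. Genes chosen for likeness carry no test.

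Tafa2 had nearer company, as genes with smaller ratios do. The 5 genes nearest to it were Trim32, a ubiquitin ligase, Ralgds, a Ral exchange factor, Dock10, a guanine nucleotide exchange factor, Fbxw7, a ubiquitin ligase subunit, and Cacng8, an auxiliary subunit of AMPA receptors, at distances of 0.05 to 0.11. Cacng8 was at -0.47 and -0.63 in the knockdown and at -0.06 and 0.16 in the rescue.

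**Figure D4:**
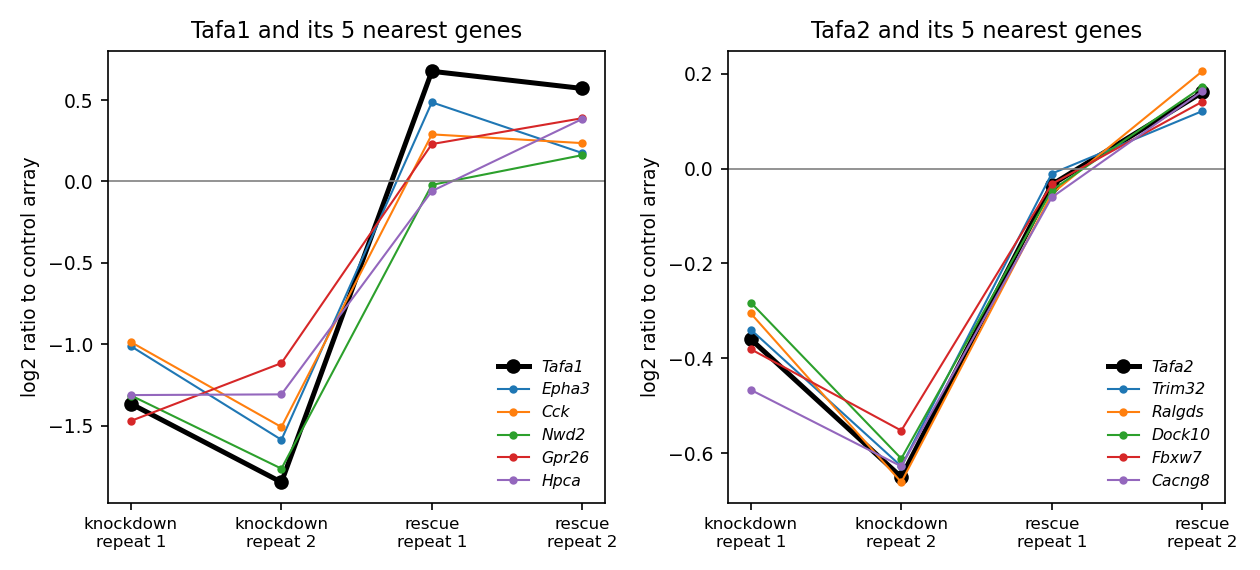
Log2 ratios to control (vertical axis) in the 4 samples are plotted for Tafa1 (left, black) and Tafa2 (right, black) and, in colour, the 5 genes nearest to each; lines join the values of 1 gene, and the vertical scales differ. All genes shown on the left are low in the knockdown, and Tafa1 is the highest of them in both rescue samples (0.68 and 0.57).

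Cell type marker genes, listed by name, were spread unevenly in the same samples. All 7 measured markers of cortical excitatory neurons lay below control in both knockdown samples, with medians of -0.44 and -0.78 (range -2.49 to -0.05 over both), against -0.20 and -0.17 in the rescue, where 5 of 7 lay below control in both samples (29.8% of all genes did). All 8 astrocyte markers lay above control in both knockdown samples, with medians of 0.27 and 0.37, against -0.08 and -0.11 in the rescue. Of all genes, 31.1% were below control in both knockdown samples and 30.5% above. For knockdown against control, 0 of these 15 markers passed in limma (0.306% of all genes), and 6 of 7 excitatory and 5 of 8 astrocyte markers had an unadjusted p under 0.05 (16.0% of all genes). Blocked by repeat, 4 of 7 excitatory markers passed as lower (3.48% of all genes) and 3 of 8 astrocyte markers as higher (1.91% of all genes). In bulk cultures, fewer cells of a type and less RNA per cell cannot be told apart.

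Tafa1 lay 0.93 and 1.07 below the excitatory median on the log2 scale in the 2 knockdown samples, and 0.88 and 0.74 above it in the 2 rescue samples. No excitatory marker was as low as Tafa1 in knockdown repeat 1, and Neurod6, a transcription factor of these neurons (-2.49), was lower in repeat 2. In the rescue, 6 of 7 markers lay below Tafa1 in repeat 1, with Neurod6 (0.90) above it, and 7 of 7 in repeat 2. Knockdown minus rescue of Neurod6 was -1.71 and -2.31 within the repeats, beside -2.04 and -2.42 for Tafa1. Interneuron markers had medians of 0.15 and -0.49 in the knockdown and of -0.30 and -0.56 in the rescue. In both knockdown samples 3 of 10 lay below control and 1 above it (31.1% and 30.5% of all genes). In both rescue samples 6 lay below it (29.8% of all genes) and 0 above. Of these 10 genes 0 passed in limma, and 3 for knockdown against control and 5 for rescue against control had an unadjusted p under 0.05 (16.0% and 7.44% of all genes). Blocked by repeat, Gad1 and Gad2, which make the transmitter GABA, passed as lower than control in the knockdown (3.48% of all genes), and Gad1 passed in the rescue (0.125% of all genes). The third of the 3 knockdown markers with an unadjusted p under 0.05, Slc32a1, went the other way. It stood above control at 0.36 and 0.34 in the knockdown. The ratios give no level for any marker, so presence of a cell type could not be checked, and the part of cell makeup in the Tafa1 and Tafa2 values was not tested.

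Reported binding partners of Tafa proteins and other ligands of neurexins were read as 3 lists. Of 26 measured genes on the 3 lists, 0 passed in limma in each comparison. At an unadjusted p under 0.05 there were 9 for knockdown against control (16.0% of all genes), 3 for rescue against control (7.44% of all genes) and 8 for knockdown against rescue (6.82% of all genes). When blocked by repeat the counts were 6, 1 and 3, where 5.39%, 0.125% and 0.617% of all genes passed. Without knockdown replicate 1 there were 4 for knockdown against control (6.38% of all genes) and 1 for knockdown against rescue (1.76% of all genes), and without knockdown replicate 2 there were 2 for knockdown against rescue (0.737% of all genes). With the rescue columns alone 2 passed for rescue against control (0.883% of all genes). Of the 26 genes, the 6 binding partners made up 2, 0 and 2 of the unadjusted counts and 0 of the counts blocked by repeat.

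Among the binding partners, the measured neurexins differed little between repeats. Nrxn3 was at -0.42 and -0.38 in the knockdown and at 0.04 and 0.05 in the rescue, and Nrxn2 at -0.38 and -0.30 in the knockdown and at 0.03 and 0.09 in the rescue. For both genes each knockdown sample lay below the rescue sample of its repeat (24.3% of all genes did so in both repeats). Neither mean passed for knockdown against control (Nrxn3 -0.40, limma SE 0.11, adjusted p = 0.162; Nrxn2 -0.34, limma SE 0.12, adjusted p = 0.216) or for knockdown against rescue (-0.44 and -0.40, limma adjusted p = 0.603 and 0.676). Fpr1 was not analysed here.

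The other binding partners had knockdown means of smaller size. Gpr1 was at -0.31 and 0.16 in the knockdown and at -0.21 and 0.13 in the rescue, and Lrp1, a large endocytic receptor, at -0.17 and 0.36 in the knockdown and at -0.23 and 0.31 in the rescue. In both genes the 2 samples of a repeat lay closer together than the 2 samples of a group. S1pr2, a sphingosine phosphate receptor, was at 0.30 and 0.31 in the knockdown and at 0.35 and -0.21 in the rescue. Lrrc4b, a postsynaptic adhesion protein, was at 0.15 and 0.02 in the knockdown and at -0.04 and -0.05 in the rescue. Each of its knockdown samples lay above the rescue sample of the same repeat (30.1% of all genes did so in both repeats). The groups of Gpr1, Lrp1 and S1pr2 overlapped. Limma adjusted p-values of these binding partners for knockdown against control ran from 0.364 (S1pr2) to 0.843 (Gpr1).

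**Figure D5:**
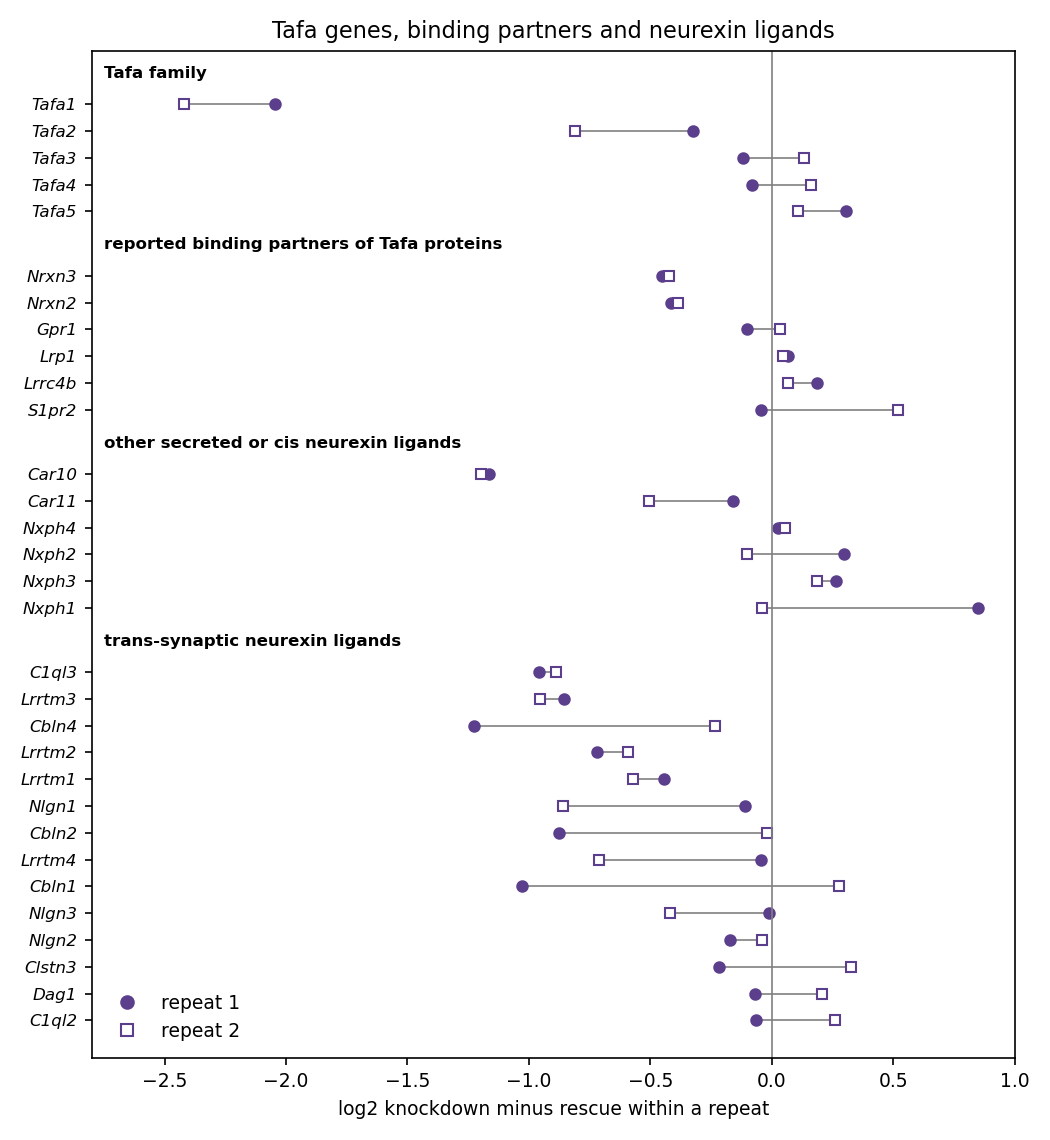
The log2 difference of knockdown minus rescue within a repeat (horizontal axis; filled circles for repeat 1, open squares for repeat 2) is plotted for the Tafa genes, the measured binding partners and the other neurexin ligands. Tafa1 lies at -2.04 and -2.42, Tafa2 at -0.33 and -0.81, and 10 of 14 trans-synaptic ligands lie below 0 in both repeats.

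The other secreted or cis ligands of neurexins are the neurexophilins and the carbonic anhydrase-related proteins Car10 and Car11. Car10 was at -0.50 and 0.46 in the knockdown and at 0.66 and 1.66 in the rescue. Each rescue sample lay above the knockdown sample of its repeat, by 1.17 in repeat 1 and 1.20 in repeat 2. The knockdown minus rescue mean was -1.18 (limma SE 0.38, adjusted p = 0.489; 0.0144 when blocked by repeat). Nxph1 was at 0.24 and -0.89 in the knockdown and at -0.61 and -0.85 in the rescue, and Nxph2 at 0.21 and -1.21 in the knockdown and at -0.09 and -1.11 in the rescue. Neither passed for knockdown against control (limma adjusted p = 0.526 and 0.491). Blocked by repeat, Nxph2 passed there (limma adjusted p = 0.0445) although its 2 knockdown samples lay on opposite sides of control.

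The ligands that bind neurexins across the synapse were lower in the knockdown more often than not. Of 14, 10 lay below control in both knockdown samples (31.1% of all genes) and 0 above it in both (30.5% of all genes), with a median of means of -0.32 beside 0.00 for all genes. Against the rescue of the same repeat, 10 were lower in both repeats (24.3% of all genes) and 0 higher in both (30.1% of all genes), with a median of -0.41 beside 0.02. With all 4 columns and no block, 0 of the 14 passed in either comparison, and 7 and 5 had an unadjusted p under 0.05 (16.0% and 6.82% of all genes). Without knockdown replicate 1, Nlgn1 and C1ql3 passed against control and C1ql3 against the rescue, and without knockdown replicate 2 Lrrtm3 passed against the rescue. Blocked by repeat, 5 passed as lower than control (3.48% of all genes), namely Nlgn1, Lrrtm1, Lrrtm3, Cbln4 and C1ql3. In the same knockdown samples 7 of 7 excitatory markers lay below control and 8 of 8 astrocyte markers above it, and their part in the values of these ligands was not tested.

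C1ql3, a secreted synaptic organizer of the C1q family, was at -0.60 and -0.82 in the knockdown and at 0.36 and 0.07 in the rescue. Lrrtm3, a postsynaptic leucine-rich repeat protein, was at -0.80 and -0.57 in the knockdown and at 0.05 and 0.39 in the rescue. In both genes each knockdown sample lay below the rescue sample of its repeat (24.3% of all genes did so in both repeats). The knockdown minus rescue means were -0.92 and -0.90 (limma SE 0.19 each, adjusted p = 0.214 and 0.240; 0.0396 and 0.0407 when blocked by repeat). Cbln4, a cerebellin, had a knockdown mean of -0.74 (limma adjusted p = 0.118; 0.0367 with the block) and a rescue mean of -0.01. Nlgn1, the neuroligin of excitatory synapses, was at -0.31 and -0.97 in the knockdown and at -0.20 and -0.11 in the rescue (knockdown against control, limma adjusted p = 0.131; 0.0374 with the block).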

How the data were processed

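Affymetrix mouse Gene 1.0 ST arrays were run on 4 test samples (2 knockdown, 2 rescue), grouped by the labels' treatment field. The authors deposited 1 linear ratio per probe set, with a test array above and its repeat's control array below the line, per the labels. The sources used here do not give how signals were corrected, summarized and normalized, or a genome build. Of 35399 probe sets, 21789 had exactly 1 symbol in the platform annotation, 1621 several, and 11989 were not listed. The number of arrays limits the precision.

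Ratios were put on the log2 scale and averaged per symbol (19938 genes). limma 3.58.1 in R 4.3.3 fitted 1 coefficient per group to all 4 columns (2 residual and 6.11 prior degrees of freedom), tested two-sided against 0 or against each other, with Benjamini-Hochberg adjustment over all genes at 0.05. The fit was tested on simulated data. Since the control array enters both ratios of a repeat, rescue and knockdown values against control are not independent. No label says that repeats were separate cultures, and p-values cover no more than the spread between these samples, possibly technical.

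Same-numbered samples share a replicate date in the labels, which pairs them. Their deviations from the group means correlated at 0.305 across genes, and the repeat as a block was fitted beside the main model. The members and lists were chosen with earlier results of these data known. Of 28 genes on the partner and neurexin ligand lists, 26 were measured. The rule for named genes was up to 4 per list (3 for chemokines) by largest absolute group mean, the measured calmodulin genes, the 5 nearest genes of members with a group mean of at least 0.5 in size, and 2 neighbours on each side. Gpr1, Lrrc4b, Lrrtm1, Neurod6, Gad1, Gad2 and Slc32a1 were named after their values were seen. Of all genes, 2066 (predicted ones, chemosensory receptors, small RNAs, receptor segments) could not be picked as nearest. Other settings tried were quantile normalization, median centring, single probe sets, a robust prior, fewer genes or columns, and leaving out each replicate.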

Additional observations from a re-analysis of the deposited data

Results flagged for a closer look

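Tafa1 was singled out because both knockdown samples lay below control and both rescue samples above it, with a mean difference of -2.23 on the log2 scale. The difference was not tested, since the gene had been chosen for these values. That order of signs was met by 887 of 19938 genes (4.45%).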

How the results depend on the processing

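Tafa1 kept its direction in all 3 comparisons under every alternative run, at -1.85 to -1.37 for knockdown against control, 0.57 to 0.69 for rescue against control and -2.47 to -1.99 for knockdown against rescue. Only quantile normalization, median centring and leaving out replicates could move these values. The other settings keep the group means of a gene with 1 probe set, so they are no check of its direction. Leaving out single replicates gave the same outer values, apart from the 0.69, which came from quantile normalization. Of Tafa2 to Tafa5, 1 gene (Tafa2) passed for knockdown against control with the repeat as a block and 0 to 1 when single replicates were left out; no other alternative called any of the 4. The block changed no other call among them. Over the 26 list genes, the block called 6, 1 and 3 for knockdown against control, rescue against control and knockdown against rescue, where the unblocked fit called 0 in each. Rescue columns alone gave 2 for rescue against control, and leaving out single replicates gave 0 to 4, 0 to 2 and 0 to 2. Leaving out a replicate leaves 1 sample in its group, which is assumed to vary like the other group. Signs turned for small values. For knockdown against rescue, Tafa3 was at -0.022 after quantile normalization, -0.0062 after median centring and -0.14 to 0.15 without single replicates, and Tafa4 at -0.079 to 0.16 without single replicates. For rescue against control, Tafa2 was at -0.034 to 0.16 without single rescue replicates. Over all genes, the 61 calls for knockdown against control (27 higher, 34 lower) became 1074 with the block, 20 after quantile normalization (13 higher, 7 lower), 56 after median centring (28 and 28) and 0 with every probe set of the table tested. Leaving out knockdown replicate 1 gave 1272 and leaving out knockdown replicate 2 gave 108, while 12 were left on leaving out either rescue replicate or both. The 14 calls for knockdown against rescue became 123 with the block, 2 after quantile normalization, 4 after median centring, with a robust prior or over single probe sets with 1 symbol, 350 and 147 without knockdown replicate 1 or 2, and 0 without either rescue replicate or with every probe set of the table. The 0 calls for rescue against control became 25 with the block, 1 after quantile normalization, and 176 without either knockdown replicate or with the rescue columns alone. The test of single probe sets with 1 symbol was chosen after seeing the data.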

Other observations

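Chemokines, the family that Tafa proteins distantly resemble, lay on both sides of control. In both knockdown samples 13 of 34 lay above control and 6 below (30.5% and 31.1% of all genes). In both rescue samples 13 lay above and 7 below (4969 and 5935 of 19938 genes). Against the rescue of the same repeat, 12 were higher and 3 lower in both repeats (30.1% and 24.3% of all genes). Of 34 measured chemokine genes, 0 passed in limma in each comparison, with 3 at an unadjusted p under 0.05 for knockdown against control (16.0% of all genes), 6 for rescue against control (7.44% of all genes) and 1 for knockdown against rescue (6.82% of all genes). Medians were -0.04 and 0.17 in the knockdown samples and 0.08 and 0.02 in the rescue samples. Cxcl10, an interferon-induced chemokine, was at -0.10 and 1.17 in the knockdown and at 0.62 and 1.07 in the rescue. Ccl3, a macrophage chemokine, was at -0.65 and -0.05 in the knockdown and at -1.06 and -0.25 in the rescue, and Ccl2, which attracts monocytes, at -0.07 and 0.60 in the knockdown and at 0.49 and 0.52 in the rescue.

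Among the other marker lists, microglia markers had medians of -0.40 and -0.01 in the knockdown and of -0.34 and -0.15 in the rescue, oligodendrocyte lineage markers of 0.03 and 0.21 in the knockdown and of -0.09 and -0.15 in the rescue, and endothelial and fibroblast markers of -0.06 and 0.36 in the knockdown and of -0.01 and -0.01 in the rescue. None of their genes passed in limma.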
